A study of Homo sapiens with 6 samples.

Results

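Solute carrier (SLC) transporters were examined as a group in OVCAR5 and OVCAR5R cells. The members are all rows whose gene symbol begins with SLC and a number, or with SLCO and a number, which gave 211 of the 12308 rows in the table, from 42 SLC families. Of these, 200 are transporter genes and 11 are not: antisense genes, pseudogenes and genes named after an SLC partner, such as SLC9A3R1 and SLC2A4RG. A total of 204 members reached a normalized value of 1 in 3 or more libraries and were tested, and 7 were not (SLC13A5, SLC22A17, SLC38A3, SLC38A5, SLC6A15, SLC6A17 and SLCO4C1). Among those 7, SLC6A17 and SLCO4C1 were listed at 0 in all 3 OVCAR5 libraries and reached at most 0.547 and 0.113 in OVCAR5R.

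RNA-seq of total RNA covered 3 cultures of each line. OVCAR5 is an ovarian cancer cell line, described in the study's methods as a BRCA wild-type, p53 null line of high-grade serous ovarian cancer (HGSOC). OVCAR5R is the only CHK1 inhibitor (CHK1i) resistant line in these data. It was derived from OVCAR5 in rising concentrations of prexasertib (Prex) up to 3 µM, kept at 2 µM, and grown for at least 4 days without Prex before use. Both lines were grown in the same medium with serum, glutamine, pyruvate and insulin. Each line is a single population, so a difference between them cannot be told apart from a difference between any parental and derived line.

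SLC proteins carry small molecules across membranes. Exchangers and cotransporters at the plasma membrane bring in amino acids, sugars, nucleosides, vitamins and metals. SLC25 carriers serve the inner mitochondrial membrane, and many SLC35 proteins, but not all, supply nucleotide sugars to the Golgi apparatus and endoplasmic reticulum. Some light chains reach the cell surface only with a heavy chain. SLC7A5 (LAT1), which carries large neutral amino acids such as leucine, and SLC7A11 (xCT), which takes up cystine in exchange for glutamate, each pair with the heavy chain SLC3A2 (CD98). Cancer cells often depend on these exchangers, on the glutamine transporter SLC1A5 and on the glucose transporter SLC2A1, and SLC29A1 and SLC19A1 bring nucleoside and antifolate drugs into cells.

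Where the smallest step of the values is taken as 1 read, the 6 libraries held between 35.8 and 55.1 estimated reads (in units of 1e6 reads) over the table, and by this estimate every OVCAR5R library was deeper than every OVCAR5 library. OVCAR5 replicate 2 stood apart. Across the tested members its log2(value + 1) correlated with the other libraries at r between 0.83 and 0.88, whereas the other 5 libraries correlated with each other at 0.91 to 0.95 (204 members that share library and depth, given as a description). It was the farthest from the group median within OVCAR5 for 90 of 204 members, against 5323 of all 11766 tested rows. The epithelial genes EPCAM and KRT19 had values of 597 and 1341 in that library against at most 31.7 and 10.7 in the other 5, and the 6 epithelial markers listed out of 8 summed to 17308 against 2388 to 4816. Fibroblast, immune and endothelial markers were sparse, with 2 of 6, 2 of 5 and 0 of 4 listed, and sums of at most 15.3 and 76.1 for the first pair of lists. Of the Müllerian markers, 3 of 6 were listed, with PAX8 at 4.38 to 11.4, and WT1, a defining marker of serous carcinoma, was below 1 in all 6 libraries. Values without OVCAR5 replicate 2 are given beside many of the results below.

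Levels of the members were compared per kb of exon, since a long transcript collects more reads. The highest was the mitochondrial ADP/ATP carrier SLC25A5, at a mean normalized value of 257 per kb over the 6 libraries. SLC3A2 followed at 160 per kb and a further ADP/ATP carrier, SLC25A6, at 141. SLC25A5 and SLC25A6 have many processed pseudogenes that can share reads with them. Next were SLC25A39, a mitochondrial glutathione carrier, at 123 per kb, SLC7A5 at 119, the lactate transporter SLC16A3 (MCT4) at 96.7, SLC2A1 (GLUT1) at 92.6 and SLC1A5 (ASCT2) at 89.7. The pair that forms the LAT1 exchanger was thus among the 5 most highly expressed SLC members of these cells. The median level was lowest for carriers of carboxylates and fatty acids, 2.69 per kb over 14 members, and among classes with more than 5 members highest for SLC25 carriers, 9.59 per kb over 37 members.

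**Figure D1:**
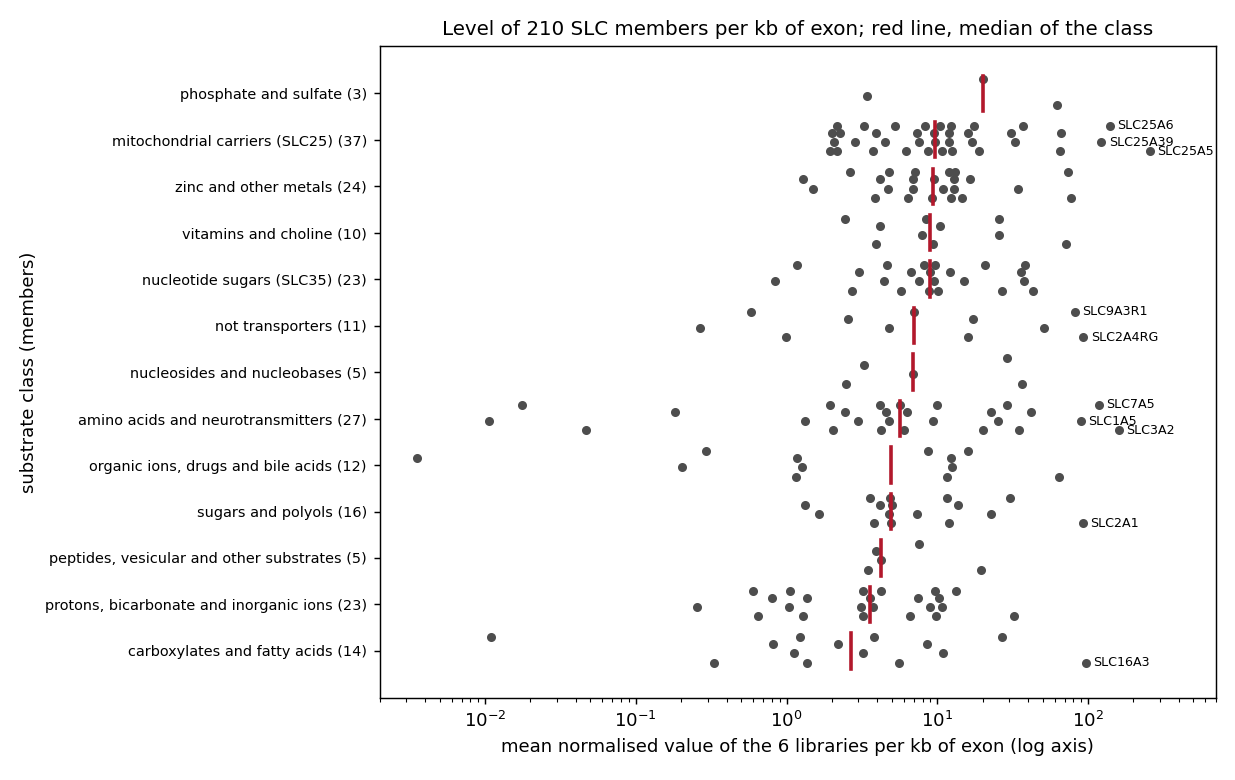
Mean normalized value of the 6 libraries per kb of exon (log axis) for 210 members with a gene model, by substrate class; each point is a gene and the red line the median of its class. The 10 highest members are named, led by SLC25A5 at 257 and SLC3A2 at 160.

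OVCAR5R was then compared with OVCAR5 by limma over all 11766 tested rows, on the log2(value + 1) scale. The counts for the members are read beside those over all rows. By the mean, 93 members were higher and 111 lower in OVCAR5R, against 49.2% and 50.8% of all rows, with a median log2 fold change of -0.04 against -0.01 for all rows. At a Benjamini-Hochberg adjusted p under 0.05, limma called 1 member of 204 (SLC37A2), or 0.49%, against 0.119% of all rows. At an unadjusted p under 0.05 it called 26 members, or 12.7%, against 10.4% of all rows. Of these, 9 were higher and 17 lower, 4.41% and 8.33% of the members, against 4.14% and 6.25% of all rows. All 3 OVCAR5R libraries lay above all 3 OVCAR5 libraries for 14 members and below them for 22, 6.86% and 10.8%, against 8.4% and 8.18% of all rows. The split of calls at an unadjusted p under 0.05 depended on the scaling. Over all rows it was 487 higher and 735 lower as deposited and 632 and 640 after quantile normalization, and over the members it was 14 higher and 16 lower after quantile normalization. Single members below are therefore described by their values, and only SLC37A2 passed the adjusted test. For a single gene, an exact permutation test of 3 against 3 libraries cannot give a p below 0.1. Replicates are separate cultures by the study's methods, and p-values measure the spread between these cultures alone. In bulk RNA, fewer cells that express a gene and less RNA per cell cannot be told apart.

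**Figure D2:**
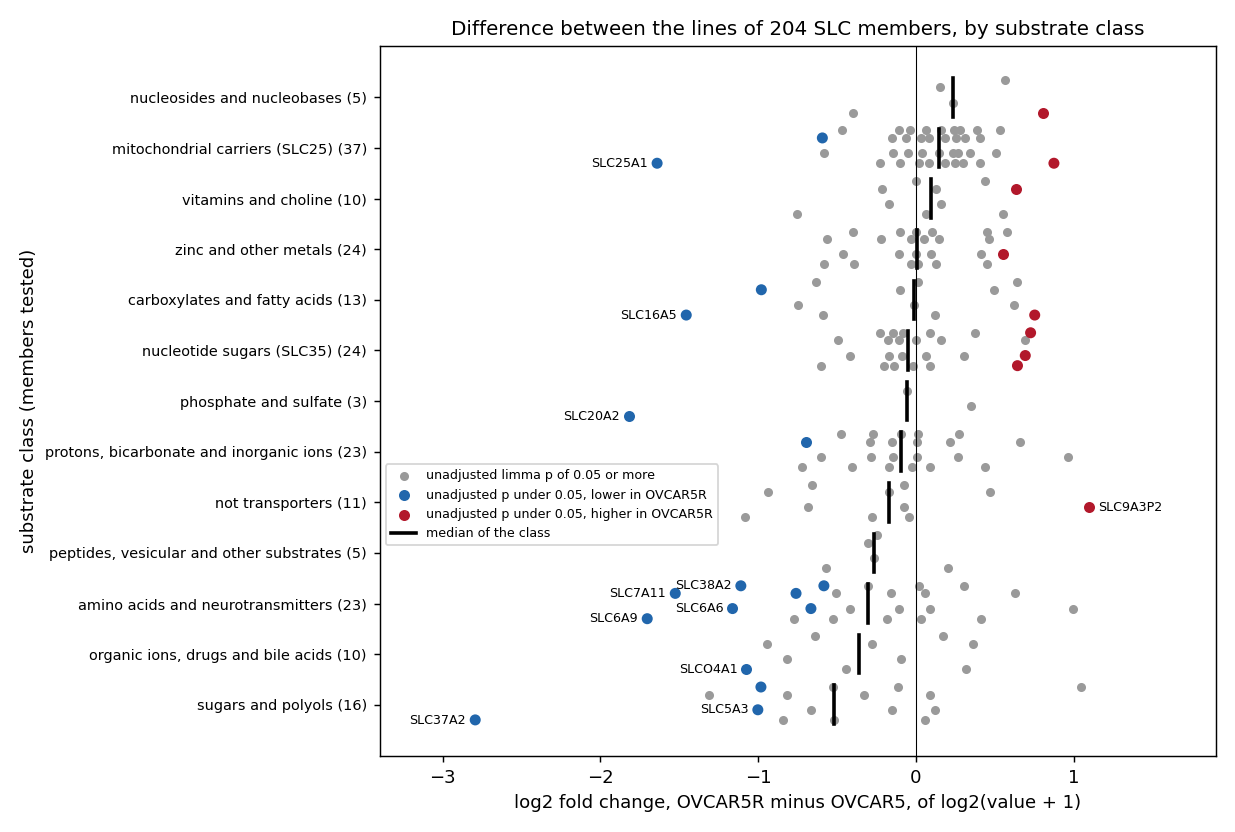
Log2 fold change of each of the 204 tested members (OVCAR5R minus OVCAR5), by substrate class ordered by the class median (black line); colored points had an unadjusted limma p under 0.05. SLC37A2 at -2.79 lies apart from all other members, and 7 amino acid transporters are colored, all on the lower side.

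SLC37A2, an exchanger of sugar phosphate and phosphate in the endoplasmic reticulum membrane, fell in OVCAR5R. Replicates 1, 2 and 3, in this order here and below, had values of 39.4, 83.8 and 60.5 for OVCAR5 and 5.30, 10.5 and 7.70 for OVCAR5R. Thus every OVCAR5R library was below every OVCAR5 library, and the means of 61.2 ± 22.2 and 7.85 ± 2.63 (SD, n = 3 each) differed by 7.81-fold. The log2 fold change was -2.79 (standard error 0.34, 95% confidence interval -3.58 to -2.01, limma adjusted p = 0.030). The gene is at chromosome 11, 125063067 to 125090312 on the plus strand of hg38, and the 90 other tested genes within 10 Mb had a median log2 fold change of 0.12. Without OVCAR5 replicate 2 the log2 fold change was -2.54 and the adjusted p from limma was 0.044. Leaving out any other single library took the adjusted p to between 0.071 and 0.138 in limma with the log2 fold change between -3.07 and -2.57, so the direction held while the call did not. The other SLC37 members overlapped between the lines. SLC37A3 and SLC37A4, the glucose-6-phosphate translocase, had log2 fold changes of -0.33 and -0.15. SLC37A1 was at 60.1 in OVCAR5 replicate 2 and between 5.45 and 10.7 in the other 5 libraries.

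Of the 27 members of the amino acid and neurotransmitter class 23 were tested. By the mean 15 (65.2%) were lower and 8 higher in OVCAR5R, against 50.8% and 49.2% of all rows, with a class median of -0.31. At an unadjusted limma p under 0.05, 7 were lower, or 30.4% against 6.25% of all rows, and none were higher, against 4.14% of all rows. None had an adjusted p under 0.05 in limma. The 7 were SLC6A9, SLC7A11, SLC6A6, SLC38A2, SLC1A4, SLC7A5 and SLC3A2. Relative to the OVCAR5 mean the class median was 0.30, -0.03 and -0.05 in the OVCAR5 libraries and -0.47, -0.40 and -0.26 in the OVCAR5R libraries, each OVCAR5R library below each OVCAR5 library. Without OVCAR5 replicate 2 the class had 6 members lower at an unadjusted p under 0.05 (6.52% of all rows) and a median of -0.32, and without OVCAR5R replicate 2 it had 4 (5.35% of all rows) and a median of -0.31.

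None of the subunits of the heavy chain complexes passed the adjusted test. The light chain SLC7A5 had values of 584, 706 and 716 in OVCAR5 and 475, 406 and 382 in OVCAR5R, a log2 fold change of -0.67 (standard error 0.20, limma adjusted p = 0.323). The heavy chain SLC3A2 had 506, 594 and 435 in OVCAR5 and 366, 301 and 353 in OVCAR5R, a log2 fold change of -0.58 (standard error 0.21, limma adjusted p = 0.395). For both genes the lines did not overlap, and the OVCAR5 means were 1.59-fold and 1.51-fold above those of OVCAR5R. SLC7A11 was more variable, with 404, 142 and 294 in OVCAR5 and 164, 36.7 and 114 in OVCAR5R. Its OVCAR5 replicate 2 fell below OVCAR5R replicate 1, so the lines overlapped, for a log2 fold change of -1.53 (standard error 0.58, limma adjusted p = 0.419). It was -0.90 without OVCAR5R replicate 2 and -1.95 without OVCAR5 replicate 2. Replicate 2 was the lowest SLC7A11 library in each line. SLC7A6, a further light chain partner of SLC3A2, had a log2 fold change of -0.15 with overlapping libraries.

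Proximal promoters of the SLC3A2 and SLC7A5 pair, and of the nucleoside transporter SLC29A1, which lay on the opposite side, are shown because these genes lay on opposite sides of the comparison. Each sequence is the 250 bases before a listed start from RefSeq (GRCh38.p14), read on the gene's strand, with 1 motif in capitals: the E-box CACGTG in SLC7A5 and SLC29A1, and the antioxidant response element TGACNNNGC in SLC3A2. There was 1 listed window for SLC7A5, 3 for SLC3A2 and 2 for SLC29A1. For SLC3A2 and SLC29A1 the window with the most motif matches was picked, and their other windows did not hold the motif.
SLC7A5, chr16:87869508-87869757, minus strand: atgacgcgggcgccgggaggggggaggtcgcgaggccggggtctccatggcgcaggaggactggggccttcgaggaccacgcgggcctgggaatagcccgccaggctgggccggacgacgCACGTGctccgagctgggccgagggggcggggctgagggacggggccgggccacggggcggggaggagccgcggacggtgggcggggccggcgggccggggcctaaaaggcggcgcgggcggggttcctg
SLC3A2, chr11:62881449-62881698, plus strand: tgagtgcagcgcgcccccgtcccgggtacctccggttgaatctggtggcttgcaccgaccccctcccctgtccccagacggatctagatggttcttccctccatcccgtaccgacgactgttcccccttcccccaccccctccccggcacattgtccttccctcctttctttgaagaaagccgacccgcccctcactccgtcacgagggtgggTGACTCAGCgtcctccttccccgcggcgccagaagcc
SLC29A1, chr6:44219365-44219614, plus strand: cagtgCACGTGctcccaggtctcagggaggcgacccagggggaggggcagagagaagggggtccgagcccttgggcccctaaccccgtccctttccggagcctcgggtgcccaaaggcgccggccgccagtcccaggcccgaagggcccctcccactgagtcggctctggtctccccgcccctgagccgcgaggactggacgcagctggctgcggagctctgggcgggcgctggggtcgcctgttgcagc
The E-box starts 130 bases before the SLC7A5 start and 245 before the listed SLC29A1 start that was picked. The antioxidant response element starts 37 bases before the listed SLC3A2 start that was picked. Searched on both strands in all such windows, CACGTG occurred in 7.7% of 27305 genes and 27 of 161 members with a listed promoter (16.8%). TGACNNNGC was in 13.2% of genes and 30 members (18.6%), and the GC box GGGCGG in 46.2% of genes and 128 members (79.5%). The 27305 are all genes with a listed window, whether or not they are among the rows of these data. The C/EBP-ATF response element TGATGNAA occurred in 3.9% of genes and in 4 members, of which SLC27A5 was the one with an unadjusted p under 0.05. Among the 11 lower members with a listed promoter, CACGTG was in 1 and TGACNNNGC in 2. The matches describe the letters of these windows and not binding.

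The other lower members of the class carry single amino acids or groups of them without SLC3A2. SLC6A6, the taurine transporter, had values of 306, 170 and 249 in OVCAR5 and 99.9, 110 and 103 in OVCAR5R. Its OVCAR5R libraries had an SD of 5.37 and were all below OVCAR5, for a log2 fold change of -1.16 (standard error 0.25, limma adjusted p = 0.192), and of -1.39 without OVCAR5 replicate 2 (limma adjusted p = 0.055). SLC38A2 (SNAT2), which takes up small neutral amino acids with sodium, had 386, 237 and 239 in OVCAR5 and 119, 160 and 113 in OVCAR5R, a log2 fold change of -1.11 (standard error 0.26, limma adjusted p = 0.243). The glycine transporter SLC6A9 was low in both lines, at 11.7, 12.5 and 3.85 in OVCAR5 and 0.716, 3.37 and 2.20 in OVCAR5R, and its log2 fold change of -1.70 is understated by the pseudocount of 1. SLC1A4 (ASCT1) lay between 24.4 and 39.8 in OVCAR5 and between 12.5 and 23.2 in OVCAR5R, with a log2 fold change of -0.76 that was -0.48 without OVCAR5R replicate 2. Its near relative SLC1A5, the major glutamine transporter, overlapped between the lines, at 219 to 461 in OVCAR5 and 241 to 299.8 in OVCAR5R, with a log2 fold change of -0.18 (95% confidence interval -0.84 to 0.48). The cationic amino acid transporter SLC7A2 was the only tested member of the class for which all OVCAR5R libraries were above all OVCAR5 libraries, at 17.8 to 23.4 against 4.17 to 16.6, a log2 fold change of 1.00 (limma adjusted p = 0.489) that was 0.46 without OVCAR5 replicate 2. SLC7A2 and SLC7A6 were chosen for mention after their values were seen.

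**Figure D3:**
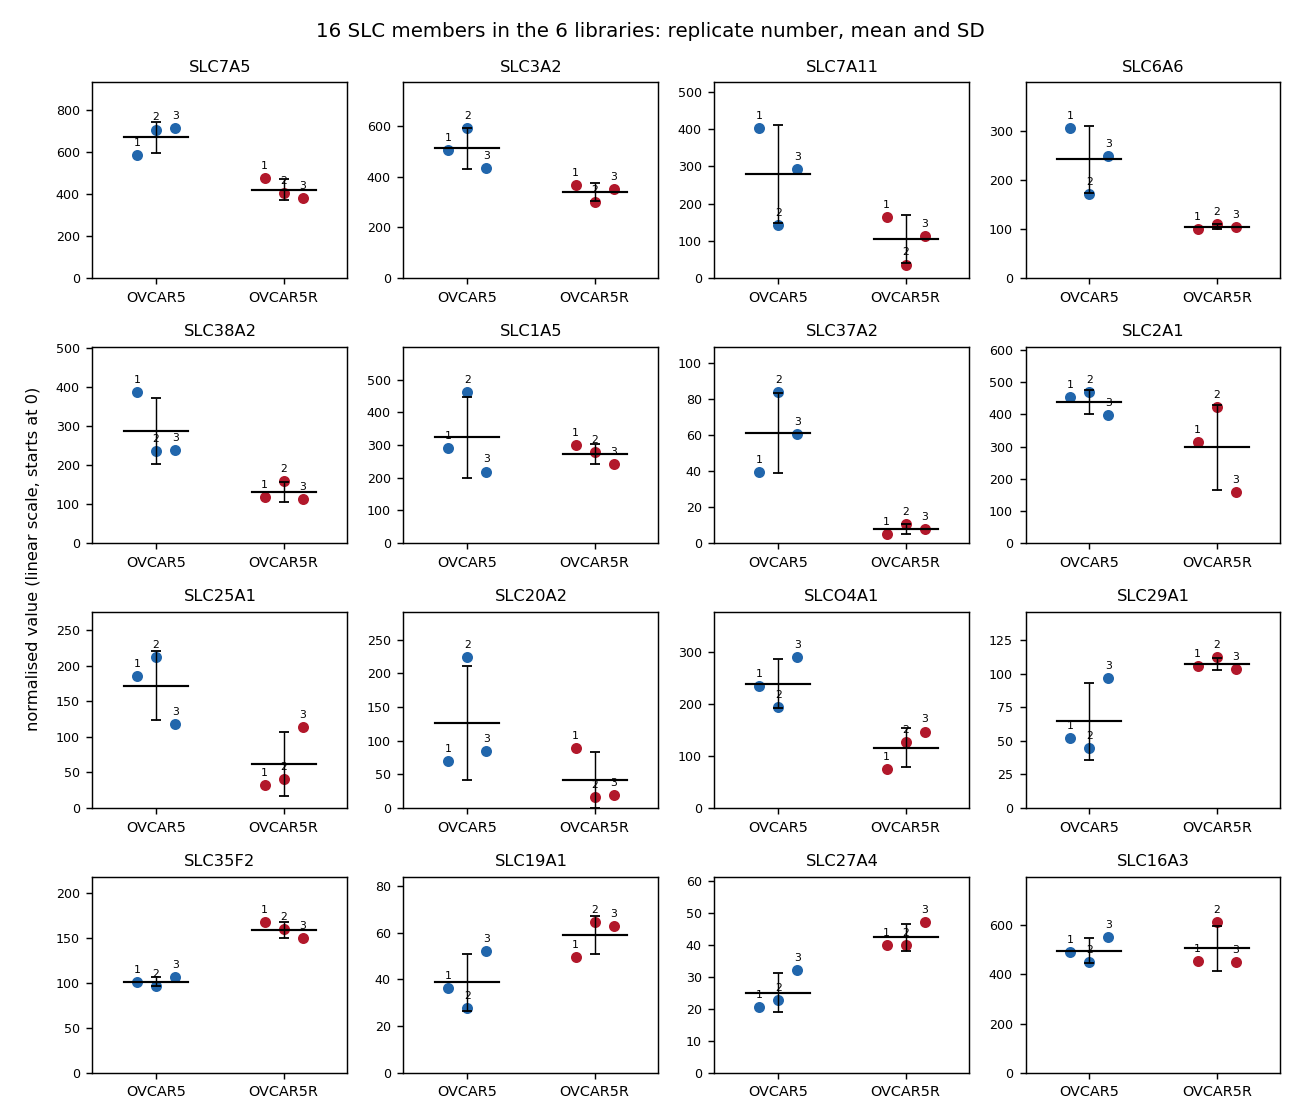
Normalized values (linear axes from 0) of 16 members in the 3 OVCAR5 (blue) and 3 OVCAR5R (red) libraries; digits give the replicate, the line the mean and the bar the SD. SLC37A2 lies below 11 in each OVCAR5R library and above 39 in each OVCAR5 library, whereas SLC1A5 and SLC16A3 overlap between the lines.

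Sugar and polyol carriers had more lower than higher members by the mean. Of 16 members, 12 were lower and 4 higher, against 50.8% and 49.2% of all rows, with a class median of -0.52. At an unadjusted limma p under 0.05, 3 were lower (SLC37A2, SLC5A3 and SLC2A10), or 18.8% against 6.25% of all rows. None were higher, against 4.14% of all rows. Without OVCAR5 replicate 2 the class median was -0.17, and 2 were lower at that level, against 6.52% of all rows. SLC2A10, a facilitative glucose transporter, had 26.4, 31.6 and 13.3 in OVCAR5 and 12, 10.9 and 9.67 in OVCAR5R, a log2 fold change of -0.98 (limma adjusted p = 0.370). SLC5A3, the sodium/myo-inositol cotransporter, had 111, 44.2 and 70.0 in OVCAR5 and 29.9, 27.7 and 49.7 in OVCAR5R, with a log2 fold change of -1.0, and of -1.33 without OVCAR5 replicate 2. The main glucose transporter SLC2A1 had 454, 468 and 398 in OVCAR5 and 315, 421 and 159 in OVCAR5R. OVCAR5R replicate 2 lay within the range of OVCAR5 and replicates 1 and 3 below it, and the log2 fold change of -0.66 had a confidence interval of -1.46 to 0.13 and was -0.27 without OVCAR5R replicate 3. SLC2A3 (GLUT3) had values of 22.2, 12.1 and 4.76 in OVCAR5 and 12.9, 38.4 and 27.2 in OVCAR5R, on the opposite side with overlapping libraries and a log2 fold change of 1.05 that was 0.52 without OVCAR5 replicate 3, and the row of its pseudogene SLC2A3P1 can share reads with it.

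Mitochondrial carriers had more higher than lower members by the mean. Of 37 SLC25 members 25 were higher and 12 (32.4%) lower, against 49.2% and 50.8% of all rows. The class median was 0.14, and 0.05 without OVCAR5 replicate 2. At an unadjusted limma p under 0.05, 1 was higher and 2 lower, 2.7% and 5.41%, against 4.14% and 6.25% of all rows. Among the lower members SLC25A1, which exports citrate from mitochondria, had the greatest difference. Its values were 185, 212 and 118 in OVCAR5 and 32.1, 40.1 and 114 in OVCAR5R, a log2 fold change of -1.64 (standard error 0.46, limma adjusted p = 0.304). OVCAR5R replicate 3 was close to OVCAR5 replicate 3, and the other OVCAR5R libraries were less than 41. SLC25A42, a carrier of coenzyme A that was chosen for mention after its values were seen, had a log2 fold change of -0.59, and of -0.47 without OVCAR5 replicate 2. The abundant ADP/ATP carriers SLC25A5 and SLC25A6 and the phosphate carrier SLC25A3 had log2 fold changes of 0.24, -0.15 and 0.18, each with an interval that spans 0.

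**Figure D4:**
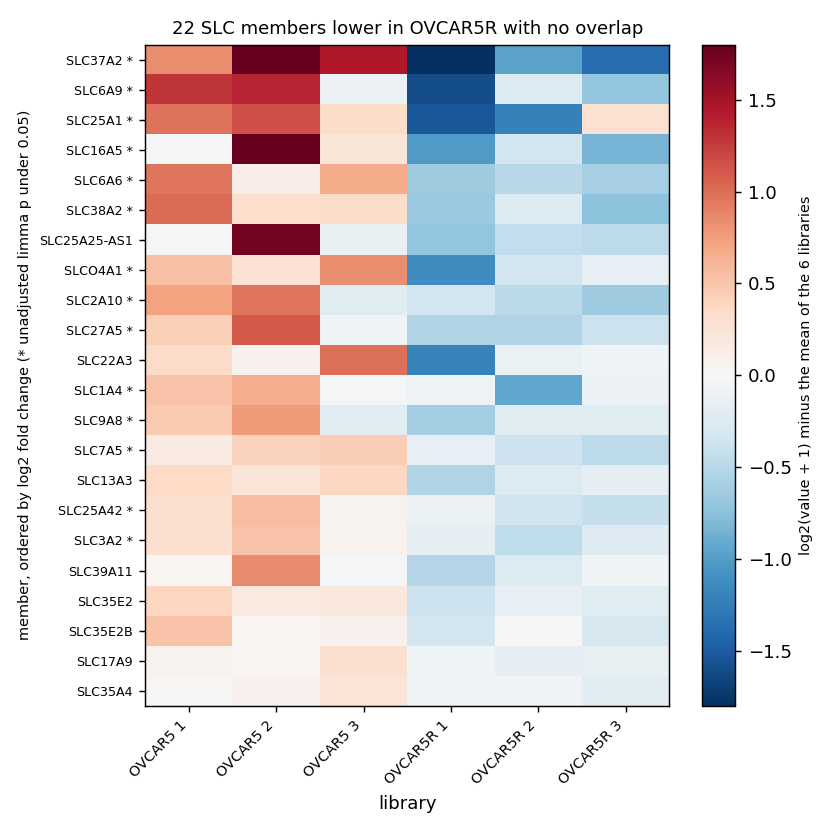
The 22 members for which all 3 OVCAR5R libraries lay below all 3 OVCAR5 libraries, ordered by log2 fold change; color gives log2(value + 1) minus the mean of the 6 libraries, red above and blue below. SLC37A2 leads at -2.79, and stars mark an unadjusted limma p under 0.05.

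Members that were higher at an unadjusted limma p under 0.05 included SLC9A3P2, SLC29A1, SLC27A4, SLC35G2, SLC35G1, SLC35F2, SLC19A1 and SLC41A1. SLC9A3P2 is a pseudogene that can share reads with SLC9A3, and its libraries overlapped, at 11.1 to 31.9 in OVCAR5 and 26.3 to 61.5 in OVCAR5R. Its log2 fold change was 1.10, and 0.69 without OVCAR5 replicate 2. SLC29A1 (ENT1), the equilibrative nucleoside transporter, had 51.9, 44.7 and 97.2 in OVCAR5 and 106, 112 and 104 in OVCAR5R, a log2 fold change of 0.81 (standard error 0.29, limma adjusted p = 0.401). OVCAR5 replicate 3 lay close to OVCAR5R, and the other OVCAR5 libraries were well below it. SLC29A2 (ENT2), SLC43A3, a purine nucleobase carrier, and SLC29A3 overlapped between the lines, with log2 fold changes of -0.40, 0.15 and 0.23. Without OVCAR5 replicate 2 these were -0.047, -0.15 and 0.77, and SLC29A3 then had no overlap (limma adjusted p = 0.429). Without OVCAR5 replicate 3 they were -0.78, 0.49 and -0.17. SLC19A1, the reduced folate carrier, had 36.4, 27.6 and 51.9 in OVCAR5 and 49.6, 64.4 and 62.9 in OVCAR5R, with a log2 fold change of 0.63 and of 0.42 without OVCAR5 replicate 2. SLC46A1, the proton-coupled folate transporter, had a log2 fold change of 0.44 with overlapping libraries.

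SLC35F2 varied little within either line. Its values were 101, 97.0 and 107 in OVCAR5 and 168, 160 and 150 in OVCAR5R, means of 102 ± 5.04 and 159 ± 8.81 (SD, n = 3 each). The gap between the lines was far wider than the spread within either, at a log2 fold change of 0.64 (standard error 0.18, limma adjusted p = 0.298), and it was 0.61 without OVCAR5 replicate 2. Its relatives SLC35G1 and SLC35G2 were low, at 5.42 to 17.6 in OVCAR5 and 11.1 to 23.0 in OVCAR5R, with log2 fold changes of 0.69 and 0.73, and of 0.48 and 0.47 without OVCAR5 replicate 2. The SLC35 class, labeled nucleotide sugars, was set by family and not by the substrate of each member. In it 11 of 24 members were higher and 13 lower by the mean, against 49.2% and 50.8% of all rows. The Golgi transporter of UDP-galactose SLC35A2 and the endoplasmic reticulum member SLC35B1 had log2 fold changes of -0.08 and -0.18. The rows SLC35E2 and SLC35E2B come from near-identical copies and their split is uncertain.

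SLC27A4, a fatty acid transport protein with acyl-CoA synthetase activity, had 20.6, 22.8 and 32.1 in OVCAR5 and 40.0, 40.2 and 47.2 in OVCAR5R, a log2 fold change of 0.75 (standard error 0.23, limma adjusted p = 0.328). Its family member SLC27A5 was low and on the opposite side, at 1.57 to 4.81 in OVCAR5 and 0.856 to 1.06 in OVCAR5R, a log2 fold change of -0.98 that was -0.67 without OVCAR5 replicate 2. The monocarboxylate family was split. SLC16A5 had 17.2, 71.5 and 20.2 in OVCAR5 and 8.07, 13.6 and 9.22 in OVCAR5R, a log2 fold change of -1.46 that was -0.83 without OVCAR5 replicate 2. SLC16A1 (MCT1) and SLC16A3 (MCT4), which carry lactate, had log2 fold changes of 0.62 and 0.02 with overlapping libraries, and that of SLC16A1 was 0.19 without OVCAR5 replicate 2. Their chaperone BSG, which is no member, had a log2 fold change of -0.15.

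The metal and ion classes had 1 member each at an unadjusted limma p under 0.05. The metal one was higher, 4.17% against 4.14% of all rows, and the ion one lower, 4.35% against 6.25% of all rows. At that level 3 of 24 metal carriers (SLC39A1, SLC39A3 and SLC41A1) were higher without OVCAR5 replicate 2, against 4.32% of all rows. With any other single library left out, 0 to 2 were higher, against 2.24% to 6.3% of all rows. Without OVCAR5R replicate 3, 1 was lower. Of 23 ion carriers SLC12A8 was higher and none were lower without OVCAR5 replicate 2, against 4.32% and 6.52% of all rows. Without OVCAR5 replicate 3, none were higher and 3 were lower, against 6.3% and 8.27% of all rows. Of 24 metal carriers 12 were higher and 12 lower by the mean. SLC41A1, which moves magnesium, was the higher member with all libraries, at 59.2, 50.2 and 45.9 in OVCAR5 and 87.6, 66.1 and 76.3 in OVCAR5R (log2 fold change 0.56, limma adjusted p = 0.413). The copper importer SLC31A1 was level, at 59.6 to 66.1 in OVCAR5 and 57.1 to 66.2 in OVCAR5R, with an interval of -0.42 to 0.42. The iron importer SLC11A2 and the zinc importers SLC39A6 and SLC39A10 had log2 fold changes of -0.39, 0.15 and 0.12, and the zinc exporter SLC30A1 varied from 26.6 to 89.9 within OVCAR5. Among 23 carriers of protons, bicarbonate and other ions, SLC9A8, a sodium/proton exchanger of the Golgi, was the lower member with all libraries. It had a log2 fold change of -0.69 (limma adjusted p = 0.463), and of -0.48 without OVCAR5 replicate 2. The bicarbonate transporter SLC4A7 and the chloride cotransporter SLC12A2 had log2 fold changes of 0.01 and -0.60, and that of SLC12A2 ran from -1.0 without OVCAR5 replicate 3 to -0.31 without OVCAR5 replicate 2.

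Phosphate, drug and anion carriers included further lower members. SLC20A2, a sodium/phosphate cotransporter, had 69.7, 224 and 84.3 in OVCAR5 and 89.6, 16.3 and 18.6 in OVCAR5R, so OVCAR5R replicate 1 lay above OVCAR5 replicates 1 and 3. Its log2 fold change was -1.82 (standard error 0.68, limma adjusted p = 0.413), and -1.31 without OVCAR5 replicate 2. Its relative SLC20A1 ranged from 83.5 to 368 within OVCAR5, with a log2 fold change of -0.05 that was -0.66 without OVCAR5 replicate 2. SLCO4A1, an organic anion transporter that also carries thyroid hormone, had 234, 194 and 290 in OVCAR5 and 74.1, 127 and 147 in OVCAR5R, with no overlap, for a log2 fold change of -1.07 (standard error 0.29, limma adjusted p = 0.298). SLC22A5, the carnitine transporter, was at 55.4 in OVCAR5 replicate 2 and 16.6 to 27.7 in the other 5 libraries. The vitamin class had 10 members, of which 6 were higher by the mean, against 49.2% of all rows. SLC5A6, a carrier of biotin and pantothenate, had 61.6, 54.9 and 96.2 in OVCAR5 and 103, 98.5 and 102 in OVCAR5R, a log2 fold change of 0.55 (limma adjusted p = 0.489). SLC33A1, the acetyl-CoA transporter of the endoplasmic reticulum, had a log2 fold change of -0.30 with overlapping libraries.

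OVCAR5 replicate 2 set several members apart on its own. It was at least 2-fold above each of the other 5 libraries, on the value + 1 scale, for 8 of 204 members and at least 2-fold below each of them for 3, or 5.39%, against 4.78% of all rows. The higher ones were SLC16A5, SLC1A3, SLC20A2, SLC25A25-AS1, SLC37A1, SLC45A3, SLC4A11 and SLC52A3, and the lower ones SLC16A1, SLC7A2 and SLC9A3P2. No other library did so for more than 4 members. Of the 26 members at an unadjusted limma p under 0.05, 14 were also under it without this library. Among them were SLC37A2, SLC6A6, SLC38A2, SLC7A5, SLC7A11, SLCO4A1, SLC25A1 and SLC35F2. The same count was not made over all rows, so the 14 cannot be set beside a background. Without OVCAR5 replicate 2 the log2 fold changes of the amino acid carriers were -0.62 for SLC7A5, -0.47 for SLC3A2, -1.95 for SLC7A11, -1.23 for SLC38A2, -1.44 for SLC6A9 and -0.62 for SLC1A4. Those of SLC25A1, SLCO4A1 and SLC2A10 were -1.47, -1.21 and -0.74, and those of SLC29A1, SLC27A4 and SLC41A1 were 0.59, 0.70 and 0.54. All of these kept their direction. Without this library limma called 9 members higher and 14 lower at that level, against 4.32% and 6.52% of all rows.

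Each member was also set beside its neighbors, the other tested genes within 10 Mb, since some members lie in chromosome regions where the median gene differed between the lines. A neighbor median of at least 0.3 in size, a value chosen after the data were seen, was found for 17 of the 203 tested members with a position. Of the 17, 15 had the sign of their neighbors. Most genes in such a window share its sign by definition, so this count is a description and tests nothing. Members that lie close together also share neighbors. On chromosome 16 all 6 members with such a median had log2 fold changes below 0, SLC7A5 among them. The median of the 71 neighbors of SLC7A5 relative to the OVCAR5 mean was -0.34, 0.17 and 0.13 in the OVCAR5 libraries and -0.35, -0.41 and -1.03 in the OVCAR5R libraries, and over the lines it was -0.59, close to the -0.67 of SLC7A5 itself. For SLC3A2 on chromosome 11, in contrast, the neighbors were at -0.01. The neighbors of SLC25A1 on chromosome 22 were at -0.78, -0.55 and 0.02 in OVCAR5R replicates 1, 2 and 3, and those of SLC20A2 on chromosome 8 at -0.04, -0.68 and -0.57. On the same scale SLC25A1 itself was at -2.34, -2.03 and -0.55, and SLC20A2 at -0.29, -2.67 and -2.50. In both cases the OVCAR5R replicate in which the member differed least from the OVCAR5 mean was also the one in which its neighbors did. These members were picked after their values were seen, and such matches were not counted over the 17. For SLC12A4 on chromosome 16 the replicates differed. Its neighbors, at -0.26, -0.14 and -0.97, differed least in OVCAR5R replicate 2. Its own OVCAR5R values of 73.9, 58.7 and 45.5 were nearest the OVCAR5 mean of 78.3 in replicate 1. On chromosome 14 SLC39A9 and SLC38A6 had log2 fold changes of 0.45 and 0.41 among neighbors at 0.54 and 0.61. The part of these regions in the members' differences was not tested. Of the 186 members outside them, limma gave 8 higher (4.3%) and 14 lower (7.53%) at an unadjusted p under 0.05, against 4.14% and 6.25% of all rows. Over the 26 members at that level, 16 had the sign of their neighbors. The neighbor medians had a median of -0.007 for the lower and 0.058 for the higher of these members. The count of signs was not made over all members or all rows, so it has no background.

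**Figure D5:**
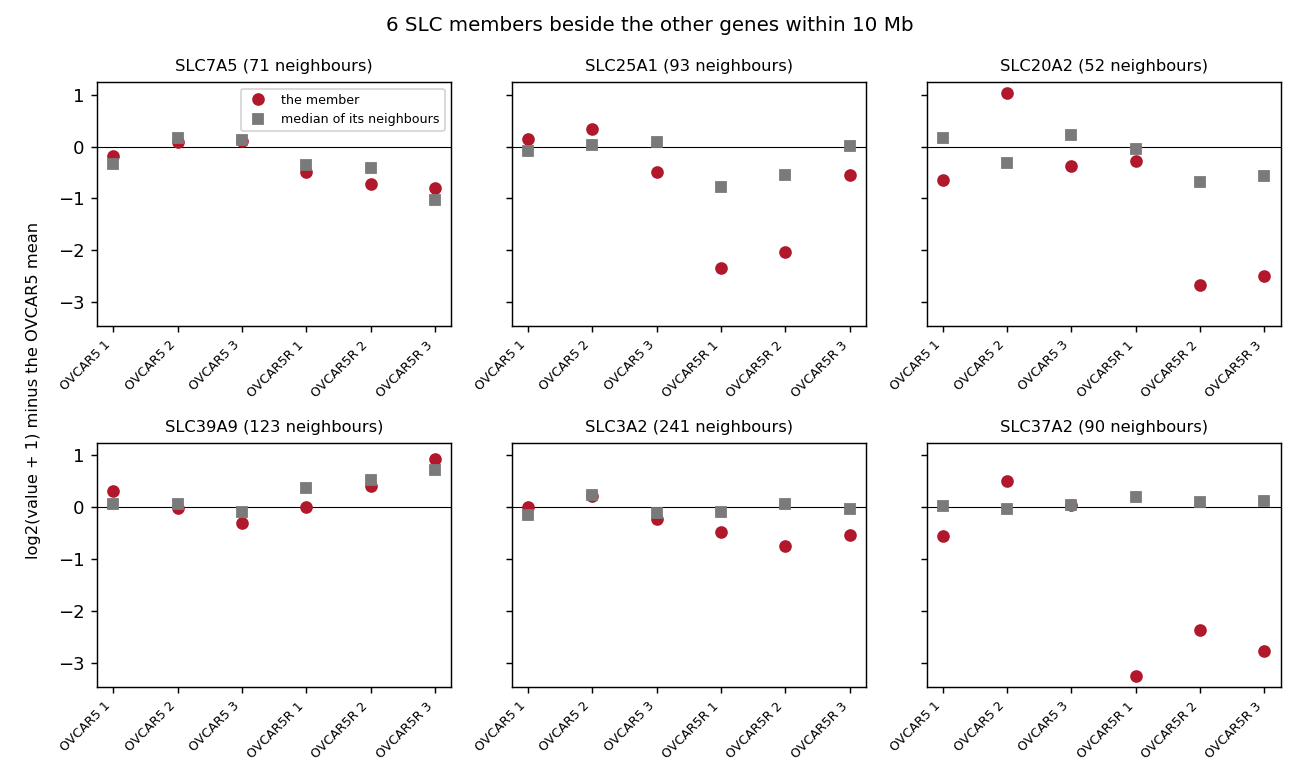
Log2(value + 1) minus the OVCAR5 mean in each library for 6 members (red circles) and the median of the other tested genes within 10 Mb (gray squares). SLC7A5 runs close to its neighbors, SLC25A1 and SLC20A2 differ least from the OVCAR5 mean in the same OVCAR5R library as theirs, and SLC37A2 and SLC3A2 are lower while theirs stay near 0. Matches by library were not counted over the other members.

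Transporters and partners outside the SLC symbols were taken from a list of 39 genes that carry SLC family numbers under other names or serve SLC proteins. Of these 30 were listed and tested, with a median of 0.03, and none had an adjusted p under 0.05 in limma. At an unadjusted limma p under 0.05, 1 of the 30 was higher and 1 lower, against 4.14% and 6.25% of all rows. The higher was FLVCR2, at 3.43 to 5.63 in OVCAR5 and 5.71 to 10.6 in OVCAR5R. The lower was SPNS2, an exporter of sphingosine-1-phosphate, at 7.10, 71.4 and 4.03 in OVCAR5 and 4.17, 1.66 and 1.16 in OVCAR5R, with a log2 fold change of -2.21 that was -1.04 without OVCAR5 replicate 2. Both were named after their values were seen.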

How the data were processed

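Total RNA of 3 OVCAR5 and 3 OVCAR5R cultures was analyzed from 1 table of values that the authors deposited, with groups taken from the sample labels. The authors deposited a normalized signal, linear and without negative values, for 12309 rows with gene symbols. The authors state quartile normalization and a log transformation prior to analysis, and per the labels the build is hg38. The aligner, counter and gene filter are not given in the sources used here. Within each library 62.1% to 66.6% of the values are whole multiples of 1 step (tolerance 0.01), so the unit may be scaled estimated reads, which the sources do not state, and no count model was used for the main test. With 1 step taken as 1 read, the depth was 35.8 to 55.1 estimated reads (in units of 1e6 reads). An identical copy of a row was dropped, which left 12308 rows.

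Rows that reached a value of 1 in 3 or more libraries were tested as log2(value + 1), two-sided and with no covariates, by limma 3.58.1 in R 4.3.3 (lmFit, and eBayes with trend), with Benjamini-Hochberg adjustment over all 11766 rows. Fold changes of low genes are understated on this scale. The test was tested on simulated data with known changes. Gene positions and exon lengths came from GENCODE release 29, in which 210 of 211 members were found by symbol. Promoters came from a RefSeq table, in which 161 members were found. Figures were drawn with matplotlib 3.10.9. Antisense and pseudogene rows are uncertain, since the counting is not described.

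Members named in the text are 37 genes fixed by role (of which SLC40A1 and SLC34A2 are not analysed here), members with an adjusted p under 0.05, the highest and lowest 12 at most among those with an unadjusted p under 0.05 and no overlap, the 2 with the highest level per kb in each class, and members at 0 in a whole line. Some members that this rule names are not reported here. Other members were named after their values were seen. The members, classes and lists were chosen with earlier results of these data known. Alternatives were 3 scalings, 2 filters, a pseudocount of 0.1, no variance trend, the replicate number as a block, and each library left out in turn.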

Additional observations from a re-analysis of the deposited data

How the results depend on the processing

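The number of members with an adjusted p under 0.05 in limma was 0 with no filter on low values (30 at an unadjusted p under 0.05) and 0 with voom on estimated reads (26 at an unadjusted p under 0.05). The former tests more rows. At that unadjusted level it gave 11 members higher and 19 lower of 211, against 547 and 723 of 12308 rows. The counts over all rows with voom are given below. The cause of the 0 adjusted calls with voom was not tested. With 1 library left out it was 0 to 1, members at an unadjusted p under 0.05 numbered 19 to 39 (9.31% to 19.1%, against 7.34% to 14.6% of all rows), and members with no overlap numbered 18 to 30 higher (8.82% to 14.7%, against 12.1% to 16.8%) and 31 to 39 lower (15.2% to 19.1%, against 12.1% to 16.4%), since fewer libraries have to be separated. The 39 came without OVCAR5 replicate 3, where the share of all rows was 14.6%. SLC37A2 kept its direction in all 14 settings, with log2 fold changes of -3.07 to -2.54 and limma adjusted p of 0.0285 to 0.138. The replicate numbers did not pair the libraries, with correlations of same-numbered deviations of -0.004, 0.176 and -0.119, and with the number as a replicate block 1 member had an adjusted p under 0.05 and 27 an unadjusted one. Over all rows, the block gave 5 adjusted calls in place of 14. At an unadjusted p under 0.05 the block gave 9 members higher and 18 lower of 204, against 471 and 834 of 11766 rows. Calls over all rows at an unadjusted p under 0.05 were 592 higher and 661 lower after scaling to the 75th percentile and 652 higher and 552 lower with voom, and over the members 12 and 15, and 12 and 14. The median over all rows was 0.04 with quantile normalization and 0.06 with voom.

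Of 58 tested members that the rule names, 38 kept their direction in all 14 settings and 20 turned in at least 1, and the reported log2 fold changes of these 20 lay between -0.28 and 0.20. After scaling to the 75th percentile SLC30A1 and SLC31A1 were at 0.025 and 0.025, after quantile normalization at 0.051 and 0.028, and with voom at 0.058 and 0.064, where SLC20A1 and SLC39A7 were at 0.012 and 0.033. With 1 library left out, the log2 fold change ran from -0.068 to 0.42 for SLC15A4, -0.13 to 0.092 for SLC16A3, -0.43 to 0.10 for SLC1A5, -0.66 to 0.41 for SLC20A1, -0.44 to 0.40 for SLC22A5, -0.30 to 0.056 for SLC25A6, -0.41 to 0.45 for SLC30A1, -0.049 to 0.056 for SLC31A1, -0.23 to 0.18 for SLC35A2, -0.025 to 0.18 for SLC35B2, -0.015 to 0.16 for SLC35F6, -0.18 to 0.37 for SLC39A10, -0.0036 to 0.26 for SLC39A6, -0.19 to 0.11 for SLC39A7, -0.15 to 0.49 for SLC43A3, -0.085 to 0.33 for SLC44A1, -0.59 to 0.18 for SLC4A2, -0.70 to 0.48 for SLC4A7, -0.51 to 0.36 for SLC50A1 and -0.035 to 0.31 for SLC52A2.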
